A study of Mus musculus with 30 samples.

Results

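Transcripts of 10 genes in brain endothelium were high at 6 months of age, low again at 12 months and high once more at 24 months. The genes are Max, Raly, Psap, Rab5c, Prpf19, Vapb, Kdelr1, Retreg3, Spr and Smco4, which are 10 of the 16844 genes tested and of the 48795 genes in the deposited tables. They were chosen by their CPM (defined below) at the 5 ages in these same libraries, so their levels by age are given as a description, without a test. The data are RNA sequencing of primary endothelial cells from the brains of wild-type mice that received no treatment. The mice were 2, 6, 12, 18 or 24 months old, and each age had 6 biological replicates, 3 male and 3 female, which makes 30 libraries. The study's question was which transcripts shift with age once sex is corrected for. The sources used here do not say whether the cells of several mice were pooled.

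The 10 genes do not form a known pathway. Max is the obligate partner of Myc and of the Mxd repressors, and its dimers bind E-box sequences to switch growth genes on or off. Raly and Prpf19 act in the nucleus, Raly as an RNA-binding protein related to hnRNP C and Prpf19 as the ubiquitin ligase at the core of a splicing complex. Kdelr1, Retreg3 and Vapb belong to the endoplasmic reticulum (ER). Kdelr1 returns escaped chaperones from the Golgi, Retreg3 is a receptor that hands pieces of the ER to autophagy, and Vapb tethers the ER to other membranes for lipid exchange. Rab5c is a small GTPase of early endosomes, and Psap is the precursor of the saposins, which help lysosomal enzymes break down sphingolipids. Spr, sepiapterin reductase, catalyses the last step in the synthesis of tetrahydrobiopterin, the cofactor of nitric oxide synthase. Smco4 encodes a small membrane protein with a coiled coil.

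The genes lie on 8 chromosomes (GRCm38). In the nuclear group, Max is on chromosome 12 (76937269 to 76962201, minus strand), Raly on chromosome 2 (154791096 to 154867261, plus strand) and Prpf19 on chromosome 19 (10895231 to 10909559, plus strand). In the ER group, Kdelr1 is on chromosome 7 (45872772 to 45883732, plus strand), Retreg3 on chromosome 11 (101096322 to 101119893, minus strand) and Vapb on chromosome 2 (173737511 to 173784336, plus strand). Rab5c lies on chromosome 11 (100715009 to 100738215, minus strand) and Psap on chromosome 10 (60277627 to 60302597, plus strand). Spr lies on chromosome 6 (85130176 to 85137766, minus strand) and Smco4 on chromosome 9 (15493432 to 15545260, plus strand). The library kit keeps no strand, and 47.1 to 50.7% of each gene's reads were on its forward-strand column. The exons of Raly alone among the 10 overlap another gene, nonagouti, over 147 bases or 4.47% of its exon length.

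Sequence upstream of the genes is shown because they moved together. In the 250 bases before the first listed RefSeq start of each gene (GRCm38.p6), 7 motifs were searched on both strands. The E-box that Max dimers bind, CACGTG, was in 0 of the 10 windows and in 6.05% of the 27025 windows of all genes, tested here or not. The lysosomal motif TCACGTG, which contains it, was in 0 of 10 and in 3.15% of all. The motif GCATGCG, which resembles the site of NRF1, was in the windows of 2 genes, Vapb and Retreg3, and in 3.07% of all. GGGCGG was in 6 of 10 (32.9% of all), CGGAAG in 4 (13.8%), CCAAT in 3 (34.5%) and TATAAA in 0 (13.0%). The windows of the 10 genes had a median of 62.2% G and C, and those of all genes 52.0%. The sequences below leave out bases after any annotated start of the same gene. The windows counted above were not trimmed in this way, so some can hold bases inside the gene. After trimming, GGGCGG remained in Vapb, Rab5c and Spr but not in Kdelr1 and Retreg3. Raly and Smco4 had too few bases left to be searched again. Capitals mark GCATGCG, which in both genes overlaps its own reverse complement. Max is shown as the gene with the largest difference, Psap as the lysosomal gene, and Vapb and Retreg3 for the motif they have in common. They are chr12:76962324-76962498 (minus strand), chr10:60277378-60277626 (plus), chr2:173737321-173737510 (plus) and chr11:101119894-101120091 (minus). The stretch of Retreg3 runs into the neighbouring gene Tubg1, whose span begins at base 101119938. Tubg1 had 0.07 ± 0.06 log2 between the sets of ages (edgeR, adjusted p = 0.562).
Max: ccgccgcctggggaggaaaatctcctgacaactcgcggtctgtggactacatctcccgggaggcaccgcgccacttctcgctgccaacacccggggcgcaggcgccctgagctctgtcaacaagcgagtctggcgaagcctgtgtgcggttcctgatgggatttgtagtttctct
Psap: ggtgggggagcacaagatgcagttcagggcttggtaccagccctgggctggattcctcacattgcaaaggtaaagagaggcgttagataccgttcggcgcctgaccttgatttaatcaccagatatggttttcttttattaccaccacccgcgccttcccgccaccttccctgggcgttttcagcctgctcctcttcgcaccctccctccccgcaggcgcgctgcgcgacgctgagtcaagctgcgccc
Vapb: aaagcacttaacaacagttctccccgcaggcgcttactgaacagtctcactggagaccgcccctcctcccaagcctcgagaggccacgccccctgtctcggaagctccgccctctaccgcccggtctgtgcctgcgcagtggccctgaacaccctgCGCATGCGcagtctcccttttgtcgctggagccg
Retreg3: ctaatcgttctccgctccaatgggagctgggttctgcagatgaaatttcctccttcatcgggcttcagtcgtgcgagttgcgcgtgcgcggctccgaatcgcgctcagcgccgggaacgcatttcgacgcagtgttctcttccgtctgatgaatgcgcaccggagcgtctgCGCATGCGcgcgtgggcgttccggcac
Such matches describe these letters only. Binding was not measured.

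Max had the widest range of levels among the 10 as a ratio, 28.2-fold from the lowest to the highest library. In CPM (reads of a gene scaled to 1000000 reads in the genes tested per library, with that total adjusted by the library's TMM factor), its 6 libraries of 6 months ran from 122.8 through a median of 149.3 to 210.5. At 24 months they ran from 69.8 through 106.8 to 114.0. The 6 libraries ran from 8.68 through 14.1 to 21.7 at 2 months, from 7.46 through 15.7 to 19.4 at 12 months, and from 20.5 through 30.1 to 40.7 at 18 months. All 12 libraries of 6 and 24 months therefore lay above all 18 of the other ages, the closest being 69.8 CPM in a female of 24 months and 40.7 CPM in a male of 18 months. The order of ages was 6, 24, 18, 12 and 2 months, and of the neighbours in that order 12 and 2 months alone had overlapping libraries. The mean of 6 and 24 months was 127.9 ± 36.7 CPM (SD, n = 12) and that of the other ages 19.5 ± 9.41 CPM (SD, n = 18). The fitted difference between these 2 sets of ages, with each age weighted equally and sex as a covariate, was 2.78 ± 0.14 log2 (SE) or 6.87-fold.

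The same separation held in each of the 10 genes. Among all 16844 genes tested, 18 genes or 0.107% had all 12 libraries of 6 and 24 months above all 18 others, and 0 had all 12 below. Since the genes were chosen for this pattern, nothing is read from that share. The weaker condition, mean levels at 6 and 24 months that both exceed those of the other ages, was met by 1396 genes or 8.29%. By edgeR's quasi-likelihood test with adjusted p under 0.05, 955 genes or 5.67% differed between the sets of ages, 463 of them higher (2.75%) and 492 lower (2.92%) at 6 and 24 months. All 10 genes are among the 463. The 10 differences ran from 1.03 to 2.78 log2 with a median of 1.86, while the median of all genes was 0.01 and 98 of 100 genes lay between -1.31 and 1.31. Differences of 1 log2 or more were found in 339 genes (2.01%), and of 2 log2 or more in 44 (0.261%).

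**Figure D1:**
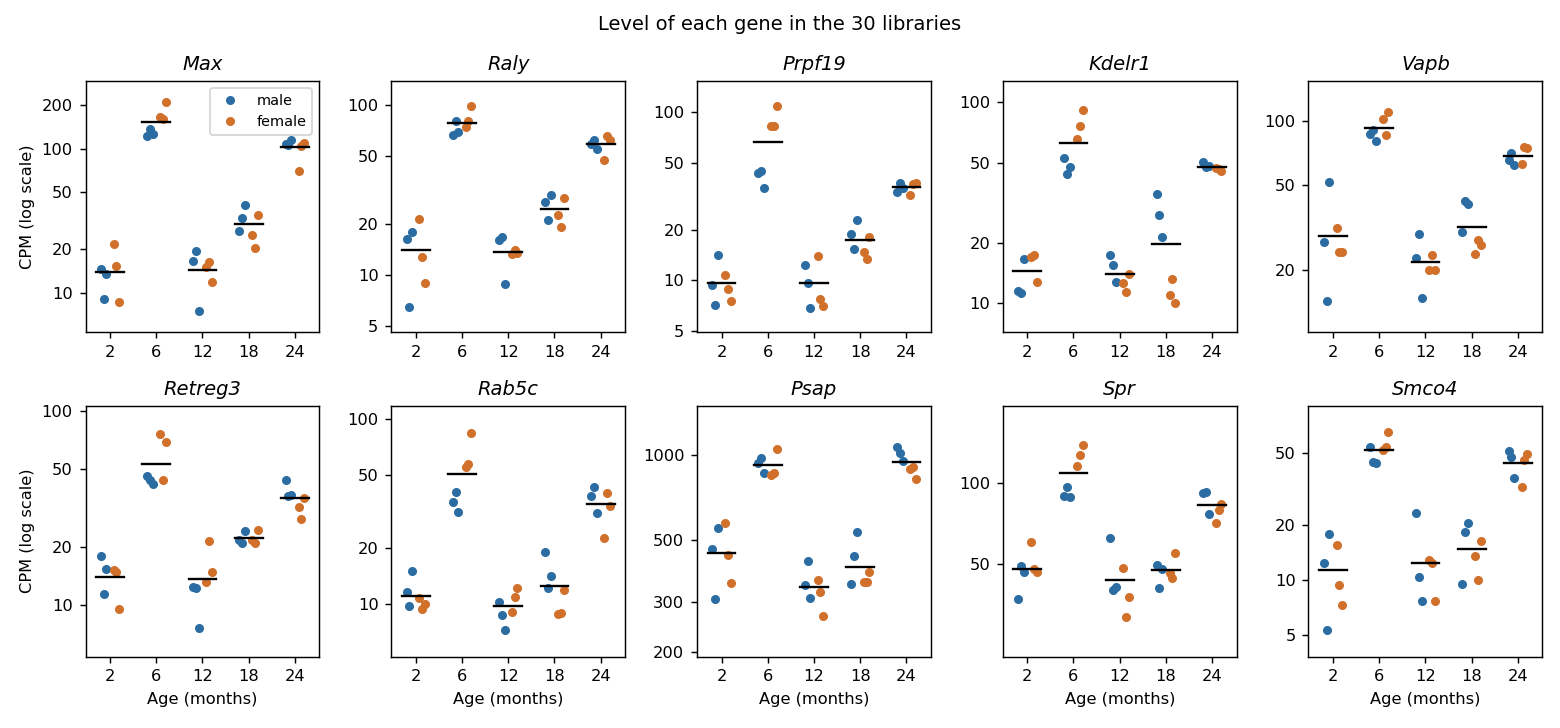
Level of each of the 10 genes in CPM (log axis, a different range in each panel) by age in months. Points are single libraries, blue for males and orange for females, and lines are the mean of 6 libraries. In each panel the 12 points at 6 and 24 months lie above the 18 others, for Max with 69.8 CPM as the lowest of the former and 40.7 CPM as the highest of the latter.

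Raly, the RNA-binding gene of the nuclear group, followed Max closely. At 6 months its libraries ran from 66.6 through a median of 77.2 to 98.98 CPM and at 24 months from 47.5 through 60.7 to 66.0 CPM. At 2, 12 and 18 months they ran from 6.45 through 14.4 to 21.3, from 8.90 through 13.7 to 16.8 and from 19.0 through 24.7 to 29.5 CPM. No library of 6 months overlapped those of 24 months, and the libraries of 18 and 2 months overlapped each other. Its fitted difference was 2.02 ± 0.12 log2.

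Prpf19, the splicing ubiquitin ligase, had a wide spread at 6 months. Its 6-month libraries ran from 35.3 through a median of 63.6 to 109.6 CPM and its 24-month libraries from 32.4 through 36.4 to 38.1 CPM. At 2, 12 and 18 months they ran from 7.18 through 9.14 to 14.1, from 6.88 through 8.69 to 13.9 and from 13.5 through 16.7 to 22.9 CPM. The spread at 6 months fell along sex. The 3 females had 82.7, 82.3 and 109.6 CPM and the 3 males 43.4, 44.9 and 35.3 CPM. At the other ages the sexes overlapped, and the difference over both sexes was 2.04 ± 0.14 log2.

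In the ER group, Kdelr1 had libraries of 44.1 through 59.0 to 90.9 CPM at 6 months and of 45.6 through 47.4 to 50.2 CPM at 24 months. The low ages ran from 11.2 through 14.7 to 17.4 CPM at 2 months, from 11.4 through 13.3 to 17.4 CPM at 12 months and from 10.1 through 17.2 to 34.8 CPM at 18 months. The 18-month libraries of this retrieval receptor split by sex, with 34.8, 27.6 and 21.3 CPM in males and 10.9, 13.2 and 10.1 CPM in females. At 6 months they split the other way, with 52.8, 44.1 and 47.8 CPM in males and 65.3, 75.9 and 90.9 CPM in females. At 18 months all 3 males exceeded all libraries of 2 and 12 months while remaining below those of 6 and 24 months. The fitted difference was 1.81 ± 0.14 log2.

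Vapb, the ER tether, ran from 80.3 through 89.1 to 109.8 CPM at 6 months and from 62.2 through 68.2 to 75.2 CPM at 24 months, so these ages did not overlap. Its low ages ran from 14.3 through 25.7 to 51.5, from 14.9 through 21.4 to 29.6 and from 23.8 through 28.9 to 42.1 CPM at 2, 12 and 18 months. The value of 51.5 CPM was in 1 male of 2 months and came within 1.21-fold of the lowest library of the high ages. Its difference was 1.56 ± 0.12 log2.

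Retreg3, the ER autophagy receptor, ran from 42.3 through 45.3 to 76.0 CPM at 6 months and from 27.8 through 36.1 to 44.4 CPM at 24 months. At 2 and 12 months it ran from 9.58 through 14.99 to 17.9 and from 7.62 through 12.8 to 21.4 CPM. Its 18-month libraries were closely spaced, at 20.97 through 21.7 to 24.5 CPM, and did not overlap those of 2 months. They came within 1.13-fold of the lowest library of 24 months, and the difference was 1.43 ± 0.11 log2.

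Of the genes of the endosome and lysosome, Rab5c ran from 31.4 through 47.7 to 84.6 CPM at 6 months and from 22.7 through 36.1 to 42.7 CPM at 24 months. At 2, 12 and 18 months it ran from 9.32 through 10.4 to 15.1, from 7.23 through 9.63 to 12.3 and from 8.81 through 12.0 to 19.2 CPM. These 3 low ages overlapped one another, and the difference was 1.93 ± 0.14 log2. Psap was the most abundant of the 10 genes, also per length, with 222.7 CPM per kilobase of exon over all libraries against 3.81 to 22.8 for the other 9. It ran from 848.3 through 900.1 to 1050 CPM at 6 months and from 825.1 through 930.9 to 1071 CPM at 24 months. At 2, 12 and 18 months it ran from 307.8 through 452.9 to 575.0, from 268.1 through 335.6 to 420.8 and from 346.8 through 368.6 to 530.8 CPM. Psap was the 1 gene of the 10 with a higher mean at 24 than at 6 months, although the libraries of these ages overlapped. Its difference was 1.25 ± 0.08 log2.

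Spr, the reductase of cofactor synthesis, had the smallest difference, 1.03 ± 0.09 log2. It ran from 88.6 through 106.3 to 137.7 CPM at 6 months and from 70.9 through 81.4 to 92.5 CPM at 24 months. Its low ages ran from 37.3 through 47.5 to 60.7, from 31.9 through 40.9 to 62.8 and from 40.9 through 47.4 to 55.3 CPM at 2, 12 and 18 months and overlapped one another. A retained copy of the gene, Spr-ps1, lies nearby, and reads that map to several places were not counted, so the level of Spr is less certain. Smco4 ran from 43.5 through 52.5 to 64.6 CPM at 6 months and from 32.3 through 46.3 to 51.3 CPM at 24 months. At 2, 12 and 18 months it ran from 5.29 through 10.9 to 17.8, from 7.62 through 11.3 to 23.2 and from 9.44 through 14.96 to 20.4 CPM. The 23.2 CPM came from 1 male of 12 months, and the difference was 1.91 ± 0.16 log2.

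The steps between successive ages were unequal. From 2 to 6 months the 10 genes differed by 1.04 log2 (Psap) to 3.47 log2 (Max), and from 6 to 12 months by -1.31 log2 (Spr) to -3.41 log2 (Max). At 12 months they were back near their 2-month levels, with differences of -0.41 to 0.13 log2 between these ages. From 18 to 24 months the differences were 0.68 log2 (Retreg3) to 1.75 log2 (Max). The 24-month levels stood below the 6-month levels in 9 genes, by as much as -0.86 ± 0.22 log2 in Prpf19, and level with them in Psap (0.03 ± 0.13 log2). The 12-to-18-month difference was largest in Max (1.07 ± 0.21 log2), followed by Prpf19 (0.85 ± 0.23 log2), Raly (0.84 ± 0.20 log2) and Retreg3 (0.73 ± 0.18 log2), and smallest in Spr (0.11 ± 0.14 log2).

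Sex was not part of the choice, so it could be tested. None of the 10 genes passed the test between males and females (edgeR, age as a factor, n = 30), beside 17 genes or 0.101% of all tested. The count was 0 at an unadjusted p under 0.05 and 0 with DESeq2. The male minus female differences ran from -0.14 ± 0.14 log2 in Prpf19 to 0.13 ± 0.15 log2 in Kdelr1, and the smallest unadjusted p was 0.133 in Psap (edgeR, adjusted p = 0.785).

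The size of the pattern differed between the sexes in Prpf19 and Kdelr1. In the males the difference between the sets of ages was 1.63 ± 0.16 log2 for Prpf19 and 1.45 ± 0.11 log2 for Kdelr1. In the females it was 2.38 ± 0.16 and 2.19 ± 0.11 log2. The male minus female difference was -0.74 ± 0.22 log2 for Prpf19 (edgeR interaction, adjusted p = 0.0456) and -0.74 ± 0.16 log2 for Kdelr1 (adjusted p = 8.51e-03). Over all genes 1044 or 6.2% passed this test, 308 of them (1.83%) with a negative value as in these 2 genes, which means a more positive contrast in females. Rab5c followed with -0.53 ± 0.20 log2 (edgeR, adjusted p = 0.116) and Vapb with -0.43 ± 0.24 log2 (adjusted p = 0.322). The difference was -0.02 ± 0.16 log2 in Psap and 0.04 ± 0.20 log2 in Retreg3.

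Both calls depended on the libraries and covariates used. Prpf19 lost its call in 21 of the 30 fits that left out 1 library each, with values of -0.87 to -0.66 log2, and Kdelr1 in 0 of them. Without the 18-month libraries, where the males were high in Kdelr1, its value was -0.32 log2 (edgeR, adjusted p = 0.341) and that of Prpf19 -0.68 log2 (adjusted p = 0.179). With the share of counts in longer genes as a covariate the values were -0.80 log2 for Kdelr1 (edgeR, adjusted p = 0.0769) and -0.70 log2 for Prpf19 (adjusted p = 0.258). In males the 10 differences ran from 0.95 to 2.70 log2 with a median of 1.54, and in females from 1.10 to 2.85 log2 with a median of 2.08. All 10 are among the genes called higher in males, 0.38% of all tested, and among those called higher in females, 8.87%, from which nothing is read.

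**Figure D2:**
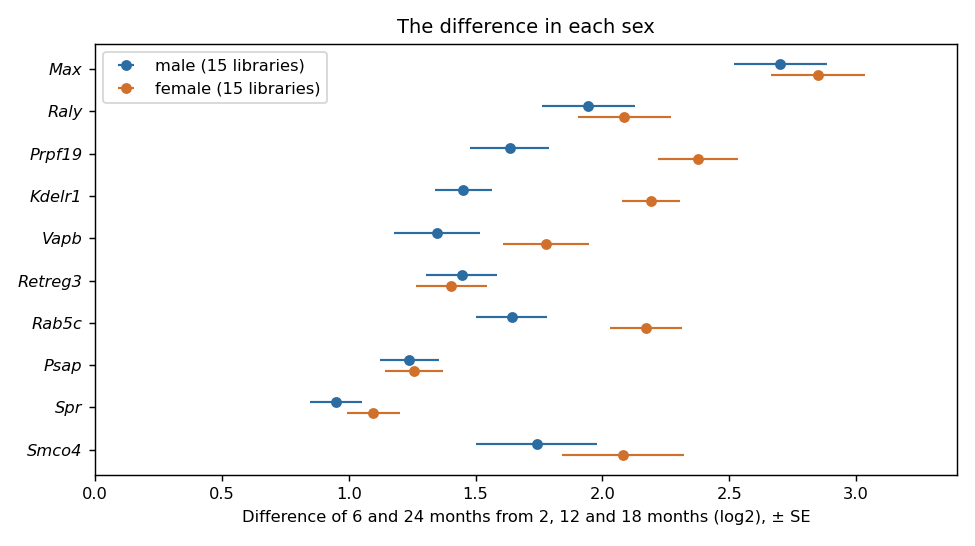
Fitted difference of 6 and 24 months from 2, 12 and 18 months (log2, point and SE) for each of the 10 genes in the 15 male libraries (blue) and the 15 female libraries (orange). The values of Prpf19 are 1.63 in males and 2.38 in females, those of Kdelr1 1.45 and 2.19, and those of Psap and Retreg3 lie close together.

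Among partners of the 10 genes, 1 rose at 6 and 24 months as they did. The lists of partners were chosen with earlier results of these data known, which limits what their p-values can show. Of 116 other genes tested on 10 lists of partners and relatives, 1 was higher at 6 and 24 months and 3 were lower (edgeR, adjusted p under 0.05), which is 3.45% beside 5.67% of all genes. This count depended on the libraries, with 2 to 11 calls when 1 library was left out. It was 43 in females alone, where 3844 of all 16811 genes tested were called. It was 2 without female 6-month replicate 1 or 2, 9 without male 12-month replicate 1, 10 without male 6-month replicate 2, and 11 without male 6-month replicate 3 or male 18-month replicate 1. Their median difference was 0.00 log2, against 0.01 for all genes and 1.86 for the 10 genes. DESeq2 called 2 higher and 13 lower, so the number of small falls depends on the tool. Over all 16844 genes it called 677 higher and 964 lower. With DESeq2 and in females alone the share of partners called was above that of all genes. It was also above with reads outside genes as a covariate (7 partners beside 684 of 16844 genes). The same held with log2 depth (12 beside 1604 of 16844) and without the 18-month libraries (13 beside 1098 of 16310). Without the 12-month libraries it was below (10 beside 1987 of 16596). At an unadjusted p under 0.05 (edgeR), 9 partners were higher and 21 lower, beside 3525 of all genes in either direction.

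The gene that rose was Copg2, a subunit of the COPI coat that carries Kdelr1 back to the ER. It averaged 36.5 ± 3.34 CPM (SD, n = 12) at 6 and 24 months and 15.9 ± 5.87 CPM (SD, n = 18) at the other ages, a rise of 1.24 ± 0.12 log2 (edgeR, adjusted p = 1.96e-08), and the libraries did not overlap. Its close relative Copg1 had -0.14 ± 0.08 log2 (edgeR, adjusted p = 0.317). Of the 16 other genes on the list of KDEL retrieval and COPI, Copg2 was the 1 that passed with edgeR, while 4 were higher and 3 lower at an unadjusted p under 0.05. DESeq2 called Copg2 and Gbf1 higher and Copa, Copb1 and Arcn1 lower. The other KDEL receptors had 0.21 ± 0.12 log2 (Kdelr2, edgeR, adjusted p = 0.333) and -0.18 ± 0.19 log2 (Kdelr3, adjusted p = 0.662). The median level of Kdelr2 was 41.01 CPM at 6 months and 32.1 CPM at 24 months, beside 31.7, 31.05 and 29.4 CPM at 2, 12 and 18 months. Its value passed with depth as a covariate (0.45 log2) and in females alone (0.50 log2, edgeR, adjusted p = 2.31e-03), and it turned to -0.05 log2 with the share of longer genes. Of the 12 chaperones that KDEL receptors retrieve, 0 passed, 2 were lower at an unadjusted p under 0.05 (Hspa5 and Pdia6), and DESeq2 called 1 (Hspa5). Hspa5, the main ER chaperone, had -0.23 ± 0.08 log2 (edgeR, adjusted p = 0.108).

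The nearest relatives of the other genes had differences smaller than theirs and did not pass the test over both sexes. In females alone Rab5a (-0.29 log2, edgeR, adjusted p = 9.88e-04) and Vapa (-0.21 log2, adjusted p = 0.0129) passed as lower. Rab5a and Rab5b, which share the endosomal role of Rab5c, had -0.14 ± 0.06 log2 (edgeR, adjusted p = 0.151) and 0.11 ± 0.11 log2 (adjusted p = 0.656). Rab5a passed as lower with reads outside genes as a covariate (-0.18 log2) and without the 18-month libraries (-0.21 log2). Of the 15 other genes of the RAB5 endosome list 0 passed with edgeR, and 4 were lower at an unadjusted p under 0.05. Vapa, the twin of Vapb, had -0.09 ± 0.06 log2 (edgeR, adjusted p = 0.355), with a median of 261 CPM at 6 months and 238 CPM at 24 months beside 254 to 302 CPM at the other ages. Among the 15 other genes of ER contact sites the cholesterol transporter gene Stard3 fell by 0.21 ± 0.06 on the log2 scale (edgeR, adjusted p = 0.0457), a call that ended in 22 of 30 fits without 1 library. Retreg1 and Retreg2, the other receptors of the Retreg family, had 0.09 ± 0.10 and 0.05 ± 0.06 log2 (edgeR, adjusted p = 0.697 and 0.647). On their list of ER autophagy receptors 0 of 8 passed, also at an unadjusted p under 0.05 and with DESeq2.

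Among the 13 other genes of the saposin pathway, which include the lysosomal hydrolases that saposins assist, 0 passed. Of these, 2 were higher and 1 lower at an unadjusted p under 0.05, and DESeq2 called Sort1 lower. Grn, the progranulin gene whose product binds prosaposin, had 0.12 ± 0.05 log2 (edgeR, adjusted p = 0.163) and Ctsd, the protease that cleaves prosaposin, 0.10 ± 0.07 log2 (adjusted p = 0.447). Of the 8 other tetrahydrobiopterin genes 0 passed by either tool or at an unadjusted p under 0.05. The entry enzyme gene Gch1 had 0.09 ± 0.09 log2 (edgeR, adjusted p = 0.603) and the endothelial nitric oxide synthase gene Nos3 -0.15 ± 0.09 log2 (adjusted p = 0.337).

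In the nuclear lists, 0 of the 11 tested partners of Max passed, 3 were lower at an unadjusted p under 0.05, and DESeq2 called 2 lower (Mga and Mlxip). Myc was near 1 CPM, at 1.06 ± 0.54 CPM (SD, n = 12) at 6 and 24 months, with a difference of -0.20 ± 0.48 log2 (edgeR, adjusted p = 0.872). Mycn was more abundant and had -0.07 ± 0.16 log2 (edgeR, adjusted p = 0.865). Of 11 further genes of the PRP19 complex the helicase gene Aqr fell by 0.29 ± 0.07 on the log2 scale (edgeR, adjusted p = 0.0171), and Cdc5l, which binds Prpf19 directly, had -0.02 ± 0.06 log2 (adjusted p = 0.923). On the RALY and hnRNP C list 7 other genes were tested, with differences of -0.27 to 0.05 log2. Hnrnpu fell by 0.27 ± 0.07 on the log2 scale (edgeR, adjusted p = 0.017). Hnrnpc, a relative of Raly, had -0.00 ± 0.05 log2 (edgeR, adjusted p = 0.997), a value whose sign turned with the scaling. The calls of Aqr and Hnrnpu ended with the share of longer genes as a covariate (-0.21 log2, adjusted p = 0.136, and -0.14 log2, adjusted p = 0.17) and without the 3 female 6-month libraries (-0.20 and -0.13 log2). Both also ended without the 2-month libraries (-0.19 and -0.20 log2), without the 6-month libraries (-0.21 and -0.17 log2) and in males alone (-0.18 and -0.07 log2), and that of Aqr with log2 depth as a covariate (-0.27 log2). That of Hnrnpu also ended without female 6-month replicate 1 and without female 6-month replicate 2.

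The composition of the libraries is given beside the pattern. Counts in genes ran from 24140980 to 50464366 per library, with medians of 27335475, 35139994.5, 27830539, 32584960 and 37325047.5 at the 5 ages in order, so both high ages had the deeper medians. The 10 genes were counted at 168 (Smco4) to 52131 (Psap) reads in every library. Reads outside genes had their highest median at 18 months (9.88%) and medians of 5.24% at 6 and 7.81% at 24 months. The portion of counts from genes with exons longer than the median of 3909 bases was lowest in the 3 female 6-month libraries (46.3, 44.7 and 48.0%) and in male 12-month replicate 1 (46.96%). The females of 6 months held the highest values of 9 of the 10 genes. The part of this share in the levels was not tested beyond the covariate fits given next. At 24 months that share ran from 52.5 to 56.4%, within the range of 2 months (52.4 to 57.3%), and at 18 months from 55.3 to 61.5%. Its medians were 54.2, 50.1, 53.5, 58.5 and 53.8% at the 5 ages in order, so the low age of 18 months had the highest. The labels' protocols state that 24 libraries gave paired-end reads on 1 instrument and 6 gave single-end reads on another. The sources used here do not name those 6, and if they make up 1 age, age and instrument cannot be told apart.

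**Figure D3:**
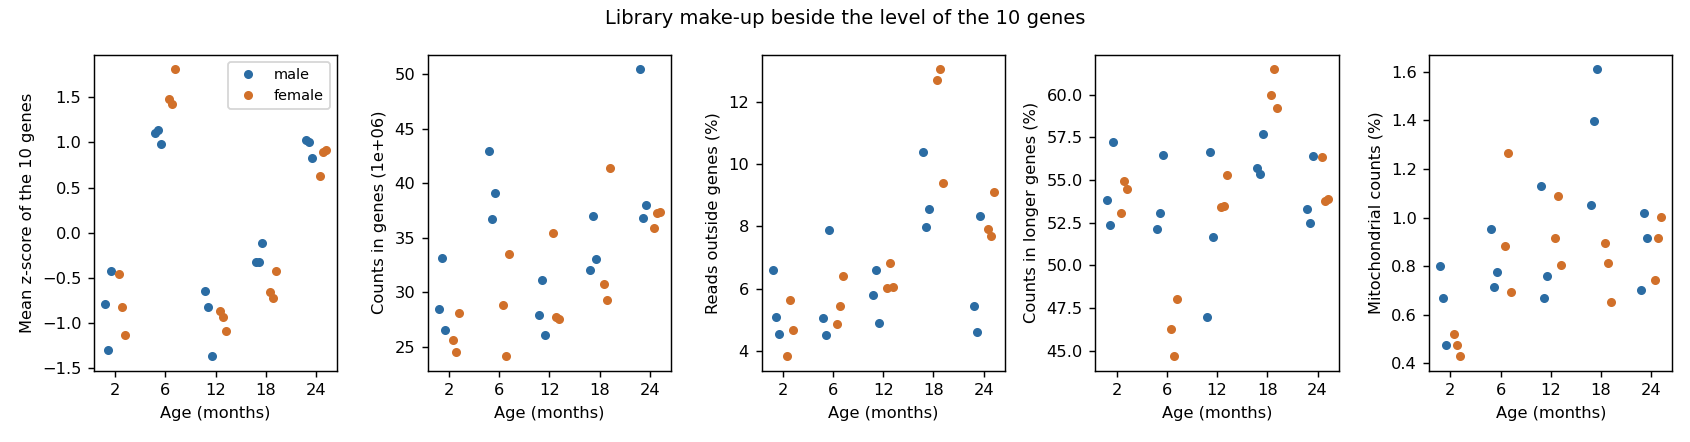
From left to right by age in months: mean z-score of the 10 genes, counts in genes (unit 1e+06), reads outside genes (%), counts from genes with exons longer than the median (%) and counts of mitochondrially encoded genes (%). Points are libraries, blue for males and orange for females. The z-scores are high at 6 and 24 months. The share of longer genes is low in the 3 females of 6 months (44.7 to 48.0%), runs from 52.5 to 56.4% at 24 months and has its highest median at 18 months (58.5%).

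The differences of the 10 genes were also fitted with these measures as covariates. Their median of 1.86 log2 became 1.80 with reads outside genes, 1.65 with the share of longer genes and 1.99 with log2 depth as a covariate. It was 1.58 without the 3 female 6-month libraries, 1.61 without all libraries of 6 months and 2.03 without those of 24 months. The largest loss from the share of longer genes was in Spr, which kept 85.8% of its difference, while Psap kept 100.3% and Max 96.5%. The count of calls over all genes, another kind of measure, went from 955 to 460 with the share of longer genes and to 159 without the 3 female 6-month libraries. All 10 differences remained positive in each setting tried. The genes were chosen for this pattern, so nothing is read from these signs.

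**Figure D4:**
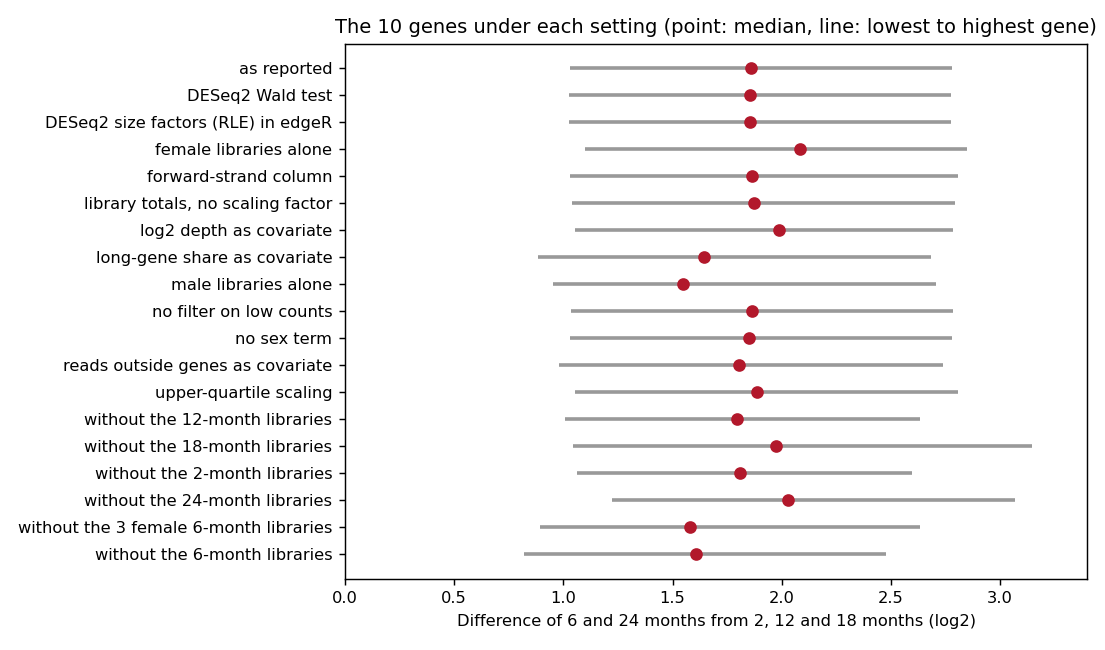
Difference of 6 and 24 months from 2, 12 and 18 months (log2) of the 10 genes under each setting, with the median as a point and the lowest and highest gene as a line. The median is 1.86 as reported, 1.65 with the share of longer genes as a covariate and 1.58 without the 3 female 6-month libraries.

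Endothelial markers were abundant at each age, with a summed level of 13068 to 16455 CPM at 6 and 24 months and 12659 to 18109 CPM at the others. Of the 8 markers Tek and Kdr were lower at 6 and 24 months, while the median of the 8 was 0.04 log2. Over all genes 2.75% were called higher and 2.92% lower. Of 5 erythroid markers 3 were higher (Hba-a1, Hbb-bs and Hbb-bt), and the median of the 5 was 0.65 log2. Their summed level was 448.0 to 2344 CPM against 165.2 to 1045 CPM. The median of the erythroid sum was 491.6, 1134, 805.5, 290.5 and 665.3 CPM at 2, 6, 12, 18 and 24 months. Of 6 smooth muscle markers Mylk was higher, although the median of that list was -0.11 log2. Of 6 choroid plexus markers Kl was lower, with a list median of -0.32 log2. The lists of pericyte, fibroblast, astrocyte, oligodendrocyte, neuron, microglia, border macrophage, lymphocyte and neutrophil markers had 0 calls, and Retnlg and Camp of the neutrophil list were at 0 in 15 libraries or more. The part of these cells in the levels of the 10 genes was not tested. In bulk samples fewer cells of a type and less RNA per cell cannot be told apart.

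The 10 genes also varied together within groups. After removing the mean of each age and sex, the correlation of log2 CPM over the 30 libraries had a median of 0.473 over the 45 pairs, was positive in 44 and ran from -0.03 (Retreg3 with Spr) to 0.84 (Max with Raly). The median over pairs of all genes was 0. Pairs share their libraries, so these values are a description. The spread within groups was 0.20 log2 (SD) in Spr and 0.48 log2 in Smco4, beside a median of 0.27 for all genes.

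Genes most like the 10 were ranked by their Pearson correlation with the mean z-score of the 10 over the 30 libraries. The 10 themselves had 0.933 to 0.985, which follows from their part in the score. The next were Elf2 (0.925), an ETS family transcription factor, Cdv3 (0.923), Npm3 (0.919), a histone chaperone relative, the translation helicase gene Eif4a1 (0.911) and Tmem39b (0.911). Npm3 was scarce, with means of 0.17, 1.18, 0.15, 0.18 and 0.90 CPM at 2, 6, 12, 18 and 24 months.

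The 10 genes were of varied length, and the GC content of their longest transcripts lay above that of the median gene, though barely so in Vapb and Max. Their exon lengths lay between the 8.3 percentile (Smco4) and the 81.1 percentile (Prpf19) of the 16800 tested genes with a length. Over all genes the median difference went from 0.12 log2 in the shortest 20% to -0.11 log2 in the longest 20%. Vapb and Prpf19, which differed by 1.56 and 2.04 log2, are among that longest 20%. The GC content of the longest transcript of each of the 10 lay between the 50.8 percentile (Vapb) and the 93.4 percentile (Raly), with Max at 51.0. The median difference over all genes went from -0.06 log2 in the 20% with the lowest GC to 0.08 log2 in the 20% with the highest. The 20 nearest tested genes on either side of the 10 had a median of 0.01 log2. Among them 2 were higher, Tmem109 beside Prpf19 (0.32 log2) and Tmem143 beside Kdelr1 (0.69 log2), and 2 were lower, Chmp4b beside Raly (-0.32 log2) and Exoc6b beside Spr (-0.54 log2). Both counts are larger shares than over all genes tested, where 2.75% were called higher and 2.92% lower. The cause was not tested.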

How the data were processed

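The 10 genes, the lists of partners and the marker lists were chosen with earlier results of these data known. Per the labels' protocols, the SMART-Seq v4 kit gave full-length cDNA and Nextera XT the libraries, which keep no strand and add no molecular identifiers. STAR 2.5.2b, HTSeq, FastQC 0.11.4 and MultiQC, with the builds mm10 and GRCm38, are listed in the submitters' processing notes. The authors deposited 1 table of whole-number read counts per library, not normalized, for 48795 genes. The column that ignores strand was used, and the 4 lines that name no gene (unmapped reads, reads at several places, reads outside genes at 3.82 to 13.1%, and reads over several genes) stayed out of library sizes and tests.

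Symbols were found for 48349 genes, and coordinates come from GENCODE M21 (GRCm38). The submitters' own annotation release is not stated in the sources used here. In R 4.3.3, filterByExpr of edgeR 4.0.16, grouped by age (at least 10 counts, and 15 in total), kept 16844 genes and all 10 of the genes described. Libraries were scaled by TMM for a robust quasi-likelihood fit to all 30 libraries. Age was a factor and sex a covariate. The pattern contrast was the mean of 6 and 24 months minus the mean of 2, 12 and 18 months, and its interaction with sex used a mean for each age and sex. P-values were adjusted by Benjamini and Hochberg over all genes tested (threshold 0.05), and each SE was derived from the F statistic. Because the contrast restates the choice of the 10 genes, it is a test only for other genes. The listed partners and markers among these were not chosen independently of the data. CPM uses TMM-scaled totals over the 16844 genes kept. The unscaled totals over all genes in the deposited tables were 24140980 to 50464366 counts. A count of 0 allows up to 3 counts, which covers counting error only. Correlations used log2(CPM + 1).

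Genes named are the 10, their paralogs, up to 4 called genes per list with the largest difference, and the 5 other genes most correlated with the 10. Other partners, markers and neighbours named were picked after their values were seen, for their role or their position. Alternatives were DESeq2 1.42.0, other scalings, no filter, no sex term, the forward-strand column, covariates for reads outside genes, longer genes and depth, and leaving out each age, the 3 female 6-month libraries or 1 library. The fits in each sex alone, the interaction with the share of longer genes and the interaction without 18 months were added after seeing the data. The method was tested on simulated data. Promoter sequences are from RefSeq (GRCm38.p6), and all 10 genes matched.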

Additional observations from a re-analysis of the deposited data

Results flagged for a closer look

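Of 50 sets of 6 libraries (10 genes at 5 ages), 2 held a library far from the others by Dixon's rule at 95%, a rule that chance meets in about 1 in 20 sets. Max was at 69.8 CPM in female 24-month replicate 1, the lowest of that age, with the next library at 105.2 CPM. Smco4 was at 23.2 CPM in male 12-month replicate 1, the highest of that age, with the next at 12.8 CPM. The size of the pattern differed between males and females by -0.7437 log2 in Prpf19 and by -0.7419 log2 in Kdelr1 (male minus female), by the interaction test given above.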

How the results depend on the processing

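The median difference of the 10 genes was 1.58 log2 without the 3 female 6-month libraries and 1.55 in males alone, and 1.78 to 1.90 over the 30 fits without 1 library. No gene of the 10 changed its direction in these fits, from which nothing is read because the genes were chosen for that direction. No paired analysis was possible because the labels carry no replicate numbers shared between ages. The number of genes called for the pattern over all genes moved far more than these medians. From 955 (463 higher, 492 lower) it went to 1641 with DESeq2 (964 lower), 460 with the share of longer genes (290 higher, 170 lower), 1604 with log2 depth (924 lower), 1987 without 12 months (1087 higher, 900 lower), 561 without 6 months (209 lower), 159 without the 3 female 6-month libraries (107 higher, 52 lower), 40 in males alone (36 higher, 4 lower) and 3844 in females alone (1735 higher, 2109 lower). Without 2 months 302 were higher. Without 1 library it ran from 550 (female 6-month replicate 3) to 1674 (male 6-month replicate 3), with 586 without female 6-month replicate 1 and 1584 without male 12-month replicate 1, from 291 to 848 higher and from 246 to 949 lower. The number of partner genes called, 4, became 15 with DESeq2, 7 with reads outside genes, 12 with depth, 10, 13 and 9 without 12, 18 and 24 months, 1 without the 3 female 6-month libraries, 1 in males and 43 in females alone, and 2 to 11 without 1 library (2 without female 6-month replicate 1 or 2, 11 without male 6-month replicate 3 or male 18-month replicate 1, 10 without male 6-month replicate 2 and 9 without male 12-month replicate 1). The number of the 10 genes with an interaction with sex, 2, was 0 with the share of longer genes and without 18 months, and 1 to 2 without 1 library. The cause of these shifts was not tested.

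Signs turned in small log2 values only. The interaction of Psap was 0.0415 without 18 months (-0.1009 to 0.0351 without 1 library), that of Spr 0.1067 with the share of longer genes, and that of Retreg3 -0.0765 to 0.1032 without 1 library. Hnrnpc was 0.0242 with upper-quartile scaling, 0.0131 with library totals, 0.0042 without the filter, 0.001 without the sex term, 0.0473 with depth, 0.0544, 0.07 and 0.1312 without 2, 12 and 24 months, 0.0509 in females alone and -0.0222 to 0.0238 without 1 library. Kdelr2 was -0.0531 with the share of longer genes, -0.0185 without 6 months, -0.0353 without the 3 female 6-month libraries and -0.0956 in males alone. In males alone Rab5a was 0.0144 and Vapa 0.0199. Retreg1 was -0.045 without 6 months and Retreg2 -0.0184 without 18 months.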

Other observations

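Other genes shared the full separation of libraries. Beside the 10, 8 genes had all 12 libraries of 6 and 24 months above all 18 others, and they were found by that property, so no test is read from it. They were BC051226 (2.53 ± 0.35 log2), the nuclear envelope gene Emd (1.82 ± 0.17 log2), Mettl7a1 (1.72 ± 0.16 log2), the transcriptional repressor Bcl6 (1.56 ± 0.17 log2), Copg2, Bloc1s3 (0.96 ± 0.10 log2), a subunit of a complex that acts in lysosome-related organelles, the mitochondrial channel gene Vdac1 (0.80 ± 0.08 log2) and Ergic1 (0.80 ± 0.07 log2). BC051226 was scarce, with means of 0.20, 2.32, 0.34, 0.40 and 1.28 CPM at 2, 6, 12, 18 and 24 months. Ergic1 encodes a protein of the compartment between the ER and the Golgi. With Kdelr1 and Copg2, it was 1 of 3 among these 18 genes whose products act in traffic between the ER and the Golgi. This grouping was made after the genes were seen, and the share of such genes among all tested was not counted, so nothing is read from it. On the KDEL retrieval and COPI list the median of the 16 other genes was -0.03 log2.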
